A study of Mus musculus with 2 samples.

Results

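The cells described here are 580 thymic cells of the control sort that held at least 1 UMI (unique molecular identifier, a counted mRNA molecule) of Bcl11b and at least 1 of Cd3g. They were thus chosen by their own counts of these genes, and were 580 of the 3250 control cells with at least 3000 UMIs (17.8%; exact binomial 95% interval 16.5 to 19.2%) and of 8293 barcodes in all. All cells came from 1 droplet library of thymus from C57BL/6 mice of genotype Bcl11byfp/yfp, in which 5 sorts were told apart by hashtag antibodies. The control sort was gated on Lin- 7AAD- Kit+ and is called ETP-DN2 in the sample's title. Control cells outside the rule numbered 2670, of which 826 held Bcl11b but no Cd3g RNA, 760 held Il2ra but no Bcl11b RNA, and 1084 held neither Il2ra nor Bcl11b RNA. The 4 gated sorts, 4567 cells with at least 3000 UMIs, shared the control's gates and were also CD25- and Bcl11b-, and then Flt3+ Ly6d- HSA-, Flt3+ HSA+, Flt3- Ly6d- HSA-, or Flt3- Ly6d+. All sorts carried the same Bcl11b reporter allele, there was 1 sort per gate, and neither the number of mice pooled nor their age was given. Cells of 1 sort are not replicates, so no test between groups was possible: intervals cover counting error alone, and Bcl11b and Cd3g, which chose the cells, are given as a description only.

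Bcl11b is a zinc finger transcription factor that thymic precursors switch on when they commit to the T-cell lineage. The CD3 chains made from Cd3g, Cd3d and Cd3e, with the zeta chain from Cd247, carry the signal of the T-cell receptor and, before a complete receptor exists, of the pre-T-cell receptor, whose invariant alpha chain is made from Ptcra. Rag1 and Rag2 cut the receptor genes for rearrangement and Dntt adds bases at the joints. Early T-cell precursors depend on the receptor tyrosine kinase Kit, begin to show CD25, the product of Il2ra, as they specify, and lower Kit as they go on.

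The 3 CD3 genes lie next to each other on chromosome 9: Cd3g at 44969572 to 44980431 on the minus strand, Cd3d at 44981786 to 44987339 on the plus strand and Cd3e at 44998740 to 45009627 on the minus strand (GENCODE M21, mouse build GRCm38). Ptcra lies at 46755663 to 46763712 on the minus strand of chromosome 17, and Bcl11b at 107910403 to 108003602 on the minus strand of chromosome 12. The start sites of Cd3g and Cd3d are 1355 bases apart and point away from each other. Their promoters are shown with those of Cd3e and Ptcra because Cd3d, Ptcra and Cd3e had the 3 largest ratios among the genes tested here and Cd3g is in the rule; all 4 were found in the RefSeq table (GRCm38.p6). Each window runs from 250 bases before to 50 bases after the start site, as RefSeq places it, 5′ to 3′ on the gene's strand, at chr9:44980382-44980681 (minus) for Cd3g, chr9:44981536-44981835 (plus) for Cd3d, chr9:45009562-45009861 (minus) for Cd3e and chr17:46763663-46763962 (minus) for Ptcra. Capitals mark matches, on either strand, to CAGCTG or CACCTG, 2 forms of the E-box that E proteins bind, and to CTTTGA or CTTTGT, which Tcf7 and Lef1 bind; TCAAAG is CTTTGA read on the other strand, and no 2 marked matches overlap.
Cd3g: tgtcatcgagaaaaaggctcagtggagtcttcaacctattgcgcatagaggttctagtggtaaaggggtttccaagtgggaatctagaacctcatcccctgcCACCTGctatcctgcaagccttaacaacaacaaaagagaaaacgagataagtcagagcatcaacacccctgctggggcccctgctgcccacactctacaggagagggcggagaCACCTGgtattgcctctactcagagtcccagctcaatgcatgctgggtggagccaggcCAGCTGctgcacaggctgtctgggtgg
Cd3d: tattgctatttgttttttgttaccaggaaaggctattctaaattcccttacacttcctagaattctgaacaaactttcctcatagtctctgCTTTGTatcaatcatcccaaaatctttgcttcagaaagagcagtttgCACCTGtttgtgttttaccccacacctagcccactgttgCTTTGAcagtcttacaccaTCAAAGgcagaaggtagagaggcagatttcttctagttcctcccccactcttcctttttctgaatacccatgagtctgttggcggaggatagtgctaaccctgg
Cd3e: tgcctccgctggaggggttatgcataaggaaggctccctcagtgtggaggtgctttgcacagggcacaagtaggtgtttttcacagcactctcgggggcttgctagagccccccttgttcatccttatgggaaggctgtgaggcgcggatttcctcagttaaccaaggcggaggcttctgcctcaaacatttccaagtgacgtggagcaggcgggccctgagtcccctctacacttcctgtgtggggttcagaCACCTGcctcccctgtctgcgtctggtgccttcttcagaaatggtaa
Ptcra: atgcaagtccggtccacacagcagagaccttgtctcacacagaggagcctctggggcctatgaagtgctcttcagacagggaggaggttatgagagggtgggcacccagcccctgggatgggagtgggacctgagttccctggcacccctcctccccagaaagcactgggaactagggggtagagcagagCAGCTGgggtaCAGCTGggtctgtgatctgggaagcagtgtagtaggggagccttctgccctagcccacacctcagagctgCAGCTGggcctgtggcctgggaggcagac
The Cd3g window held CACCTG at 148 and 35 bases before the start and CAGCTG at 24 after it, and the Ptcra window held CAGCTG at 60 and 49 bases before the start and 22 after it. The Cd3d window held CACCTG at 112 bases before the start, CTTTGA at 73 and, on the other strand, at 54, and CTTTGT at 159; the Cd3e window held 1 match, CACCTG at 4 bases after the start. TGTGGT, a motif of Runx factors, was found in none of these 4 windows. Over all 32817 mouse promoters in the table, windows of this length held CAGCTG in 16.3%, CACCTG in 20.2%, CTTTGA in 16.0%, CTTTGT in 18.7% and TGTGGT in 16.8%. These matches are letters in a window and say nothing of what is bound there.

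The 580 cells held 9600100 UMIs, with a median of 16395.5 per cell (3074 to 75558), and the other control cells 47507784, with a median of 16235. Median genes detected were 3906 and 3880, and the median shares of mitochondrial UMIs were 4.86% and 4.59%. No cell with at least 3000 UMIs in the 4 gated sorts met the rule (0 of 4567; a count of 0 allows up to 3 cells, 0.0657%), at a median of 13974 UMIs. Of the 600 control cells with a Cd3g UMI, 580 also held Bcl11b (96.7%) and 20 did not, while of the 1406 with a Bcl11b UMI only 580 held Cd3g (41.3%).

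The label's other markers were higher in these cells, but unevenly. Levels below are UMIs of the gene per 1000000 UMIs summed over a group (CPM). Cd3d stood at 344 CPM in the Bcl11b+ Cd3g+ cells and 1.89 CPM in the other control cells, a ratio of 182 (147 to 226). Cd3e stood at 164 and 1.43 CPM, a ratio of 115 (89.9 to 148). Ptcra stood at 76.1 and 0.610 CPM, a ratio of 125 (86.1 to 188), and Lef1, a partner of Tcf7 in T-cell gene control, at 32.6 and 0.905 CPM, a ratio of 36.0 (26.1 to 50.8). Yet Cd3d had no UMI in 292 of the 580 cells, Cd3e none in 182, Ptcra none in 379 and Lef1 none in 447, so the 6 markers were not a property of each cell that met the rule. The rule itself put Cd3g at 1121 CPM against 4.46 CPM, and Bcl11b at 585 CPM against 114 CPM.

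With each cell thinned to 3000 UMIs, Cd3d, Cd3e and Ptcra were again found more often in the Bcl11b+ Cd3g+ than in the other control cells. The classes themselves were still set on all UMIs. Cd3d was detected in 40.7% of the Bcl11b+ Cd3g+ cells, 0.375% of the other control cells and 0.0438% of the gated sorts, which were gated Bcl11b-. How much of the share in the gated sorts is background was not tested. Cd3e was detected in 44.0%, 0.487% and 0.0438% of the same groups, and Ptcra in 26.4%, 0.187% and 0.0657%. Thy1, a surface glycoprotein of thymocytes, was detected in 52.4%, 7.30% and 2.82%. Il2ra was detected in 54.5%, 31.8% and 2.63%, and Kit in 9.83%, 24.4% and 23.2%. The sort was gated on Kit protein, and no protein level was read here.

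The cells spread over a wide range of depth, along which CD3 RNA and cycle phase differed. With the control cells cut by depth into 10 bins of equal size, 50.5% met the rule in the lowest bin (3006 to 7707 UMIs). The share was 12.6% in the next bin, 8.31% in the fourth and the fifth, and 18.8% in the deepest (29264 to 97676 UMIs). The highest share stood in the shallowest bin. Control cells with Bcl11b but no Cd3g RNA ran the other way there, at 7.69% of the lowest bin, 36.3% of the sixth and 28.3% of the highest. Below, cells under 8000 UMIs are called small and the rest large, a limit chosen after these values were seen.

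**Figure D1:**
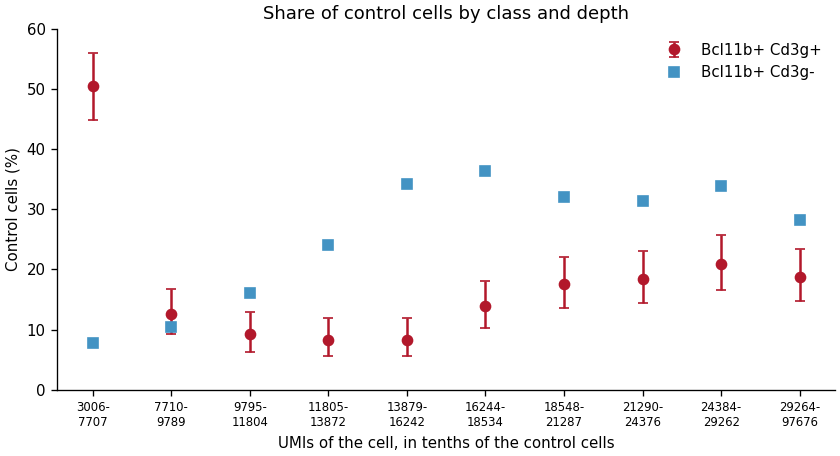
Share of control cells (%) that held both Bcl11b and Cd3g RNA (circles, with exact binomial 95% intervals) or Bcl11b but no Cd3g RNA (squares), in 10 bins of equal size of the control cells by UMIs per cell. The circles stand at 50.5% in the lowest bin and between 8.31% and 20.9% in the other bins.

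Small cells numbered 179 of the 580 (30.9%) and large cells 401. The 179 were 48.2% of the 371 small control cells, and the 401 were 13.9% of the 2879 large ones. Small Bcl11b+ Cd3g+ cells had a median of 5690 UMIs and 2145 genes with a median mitochondrial share of 6.17%, and large ones 20539 UMIs and 4446 genes with 4.53%. Small control cells outside the rule, 192 in number, had a median of 6835.5 UMIs and a mitochondrial share of 5.31%.

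Small cells held a median of 23 Cd3g UMIs each (1 to 56) and large cells a median of 7 (1 to 114), so the ranges overlap and the highest counts were in large cells. Cd3g is part of the rule, and these counts are a description. Just inside the rule, 106 cells held 1 Cd3g UMI, 2 of them small, and 70 of the 106 had no UMI of Cd3d, Cd3e, Ptcra, Lef1 or Rag1. Those 106 cells had 2.24 CPM of Cd3d, 15.2 CPM of Cd3e and 0 CPM of Ptcra, with 468 CPM of Bcl11b and 57.8 CPM of Kit. Droplets that hold 2 cells of the control sort carry 1 hashtag and were not looked for, so how many of these or of the large cells are doublets was not tested. Cells with more than 10 Cd3g UMIs numbered 320, of which 158 were small and 216 held at least 3 of the 5 markers. Just outside the rule, 730 of the 826 Bcl11b+ Cd3g- cells had no UMI of any of the 5. On the other side of the rule, the 20 control cells with Cd3g but no Bcl11b RNA included 4 small ones, and 5 of the 20 held at least 3 of the 5 markers.

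**Figure D2:**
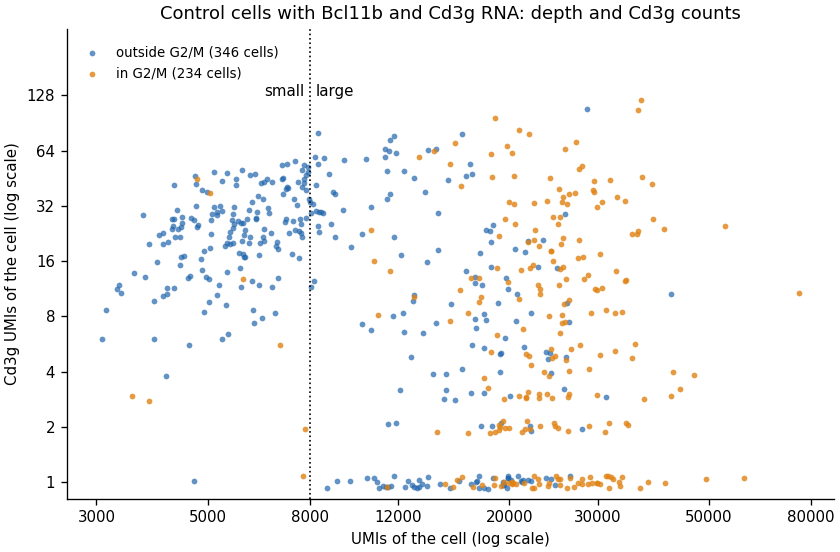
Each point is 1 of the 580 control cells with Bcl11b and Cd3g RNA, by its UMIs (x, log scale) and its Cd3g UMIs (y, log scale, shifted slightly at random to separate points); orange cells were in G2 or M phase and the dotted line marks 8000 UMIs. Small cells have a median of 23 Cd3g UMIs and few are orange (8 of 179), while the row at 1 Cd3g UMI is made of large cells but for 2.

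Co-detection within single cells separated small and large cells further. With each cell thinned to 3000 UMIs, at least 3 of the 5 markers Cd3d, Cd3e, Ptcra, Lef1 and Rag1 were found in 143 small Bcl11b+ Cd3g+ cells (79.9%), 36 large ones (8.98%), 0 of the 826 Bcl11b+ Cd3g- cells and 4 of all 2670 other control cells (0.150%). None of the 5 was found in 4.47% of the small cells, 67.3% of the large cells and 97.6% of the Bcl11b+ Cd3g- cells. Cd3d was found in 90.5% of small and 18.5% of large cells, Cd3e in 88.8% and 23.9%, Ptcra in 67.6% and 7.98%, and Rag1 in 53.6% and 5.74%. Rag1 was found in 0.482% of cells of the gated sorts, so the large cells' share lay above that of those sorts too. Kit went the other way, at 4.47% of small and 12.2% of large cells, and 169 of the 179 small cells held no Kit UMI at full depth.

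**Figure D3:**
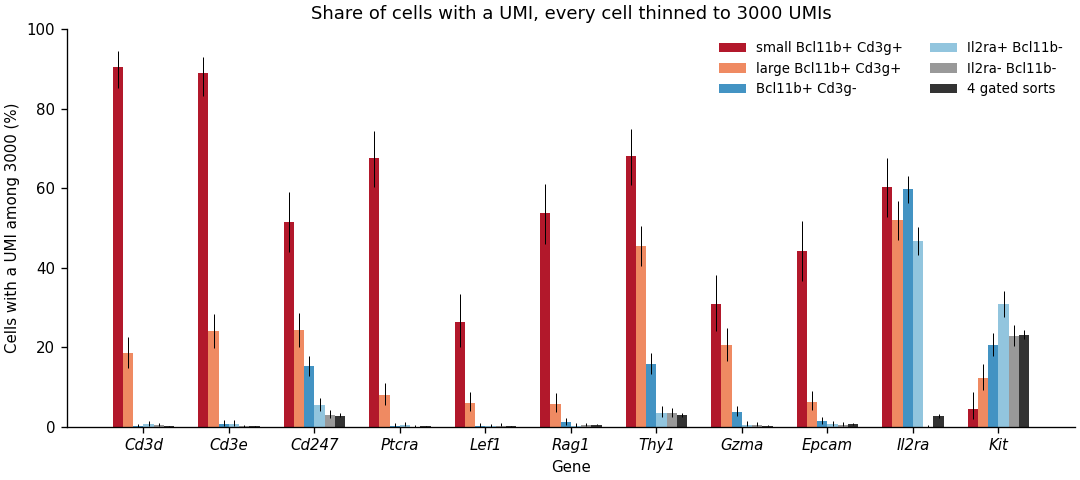
Share of cells with a UMI (%) of each gene after thinning each cell to 3000 UMIs, with exact binomial 95% intervals, in 6 groups: small and large Bcl11b+ Cd3g+ cells, the 3 other classes of control cells, and the 4 gated sorts. Cd3d stands at 90.5% in small and 18.5% in large cells, and at 0.0438% in the gated sorts.

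Between small and large cells, 2920 genes reached a mean of 50 CPM, of which 462 were at least 1.5-fold higher in small cells (15.8% of those tested) and 509 at least 1.5-fold lower (17.4%), 33.3% in either direction. A gene high in 1 of the 2 groups can reach the mean of 50 CPM through that group alone, so counts over the genes that reached it describe these genes and are no support for a direction; sums over whole lists, below, have no such filter. The CD3 and pre-T-cell receptor genes other than Cd3g summed to 3539 CPM in small and 336 CPM in large cells. Cd3d stood at 2098 CPM in small and 134 CPM in large cells (15.7-fold), Ptcra at 494 and 26.1 CPM (18.9-fold), Cd3e at 724 and 97.0 CPM (7.46-fold) and Cd247 at 222 and 79.3 CPM (2.80-fold). Lef1 was 5.27-fold higher, at 118 and 22.4 CPM. The split depends on scale: with TMM factors the counts were 347 higher and 676 lower, and with DESeq2 size factors 349 and 673, since the median of all genes moved by -0.14 and -0.13 on the log2 scale.

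The 10 recombination genes of the list summed to 3030.0 CPM in small and 1359 CPM in large cells, of which 3 reached the limit. Rag1 stood at 373 CPM in small and 14.0 CPM in large cells, a ratio of 26.7 (21.7 to 33.0), and Dntt at 2101 and 999 CPM (2.10-fold). The 11 Notch receptors and targets summed to 1097 CPM in small and 359.8 CPM in large cells, of which 4 reached the limit and Myc, 1.78-fold higher, was 1.32-fold higher with cells thinned to 3000 UMIs. Notch3, a Notch receptor, stood at 134 CPM in small and 10.5 CPM in large cells (12.8-fold), Notch1, the receptor that drives T-lineage choice, at 408 and 148 CPM (2.76-fold) and Hes1, a repressor induced by Notch, at 278 and 90.5 CPM (3.07-fold). Dtx1, another Notch target, was too low to be tested, at 87.7 and 4.20 CPM.

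The 25 T-cell receptor signalling genes summed to 4263 CPM in small and 2016 CPM in large cells. Of the 10 that reached the limit 8 were higher in small cells and 1, Tespa1, was 2.23-fold lower. Lck, the kinase that starts receptor signalling, was 2.99-fold higher, the adaptor Lat 2.37-fold, and Themis, needed for thymocyte selection, 4.53-fold at 189 CPM in small and 41.8 CPM in large cells. Of the 16 T-lineage regulators that reached it, Lef1, Tcf12, Ets1, Runx1, Gfi1 and Satb1 were higher and Runx3, a factor of the CD8 lineage, was 2.12-fold lower. Tcf7 stood at 407 and 322 CPM and Gata3 at 77.0 and 88.5 CPM, both within 1.5-fold. Of the 12 cytokine and homing receptors that did so 7 were higher, led by Ccr9, a chemokine receptor for thymic homing, at 161 and 10.5 CPM (15.3-fold), and Itga4, an integrin chain, was 1.84-fold lower.

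Cell cycle genes were lower in small cells by their sums. The 25 G2 and M phase genes summed to 411 CPM in small and 5330.3 CPM in large cells, and the 26 S phase genes to 1359 and 4881 CPM. Mki67, a proliferation marker, stood at 21.4 CPM in small and 414 CPM in large cells (19.3-fold lower), Ccnb1, the mitotic cyclin, at 3.90 and 154 CPM (39.6-fold lower; 15.4 to 145) and Top2a, which untangles replicated DNA, at 65.3 and 759.7 CPM (11.6-fold lower). The 19 growth genes linked to Myc summed to 4921 CPM in small and 8110.3 CPM in large cells, and of the 17 that reached the limit 11 were lower and none higher. Among G1 regulators, the inhibitors Cdkn1a (119.9 and 37.0 CPM, 3.24-fold) and Cdkn1b (2.25-fold) and the cyclin Ccnd2 (2.26-fold) were higher, and Ccnd3 (1.97-fold) and Cdk4 (2.02-fold) lower. The survival genes Bcl2 (2.17-fold) and Mcl1 (2.15-fold) were higher.

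Cells in G2 or M phase, defined as those with at least 5 UMIs of 25 G2 and M genes among 3000, made up 4.47% of small (8 of 179) and 56.4% of large cells (226 of 401; 51.3 to 61.3%). The CD3 differences were measured again without them: among 171 small and 175 large cells outside G2 or M, Cd3d was 7.98-fold, Ptcra 9.49-fold and Rag1 14.8-fold higher in small cells. There 2867 genes were tested, of which 456 were higher (15.9%) and 403 lower (14.1%), 30.0% in either direction, and the S phase genes summed to 1234 CPM in small and 4299 CPM in large cells. Depth, mitochondrial share and cycle phase all moved with the split, and their part in the other differences was not tested.

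**Figure D4:**
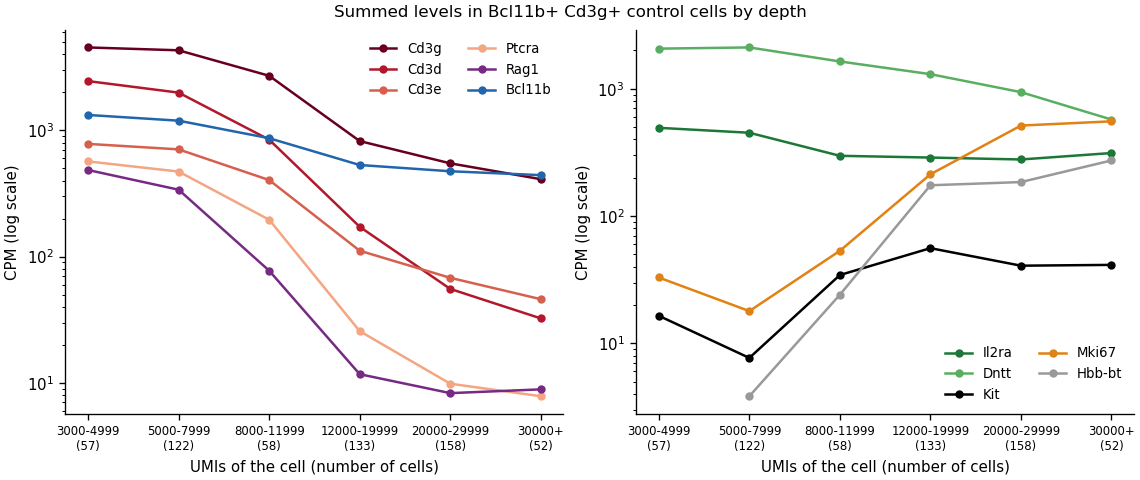
Summed level (CPM, log scale) of 11 genes in the Bcl11b+ Cd3g+ control cells in 6 ranges of UMIs per cell, with the number of cells in brackets; Hbb-bt at 0 in the lowest range is not drawn. Cd3g, Cd3d, Cd3e, Ptcra and Rag1 are far lower above 12000 UMIs than below 8000, while Il2ra stands between 278 and 493 CPM.

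The difference in summed level with depth was graded for the CD3 genes and smaller for Il2ra. Il2ra was 1.59-fold higher in small than in large cells (1.45 to 1.71 over the settings tried). In 6 ranges of depth from under 5000 to at least 30000 UMIs, with 57, 122, 58, 133, 158 and 52 cells, Cd3d stood at 2453, 1988, 844, 172, 55.5 and 32.4 CPM. Ptcra stood at 567, 471, 196, 25.7, 9.85 and 7.84 CPM. Both genes were thus lower in each deeper range than in the one before. Il2ra stood at 493, 451, 297, 288, 278 and 312 CPM, and Kit at 16.4, 7.67, 34.4, 55.9, 40.7 and 41.3 CPM. The sums of the middle range of 58 cells, from 8000 to 11999 UMIs, lay between those of its neighbours for Cd3d, Ptcra and Kit. Sums do not show whether single cells were intermediate, and this range held unlike cells. For example, a cell of 10373 UMIs had 60 Cd3g UMIs and all 5 markers. Another, of 10402 UMIs, had 1 Cd3g UMI and 0 of the 5.

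By the largest ratios, the genes that led the small cells included Slc5a9, a sodium-linked sugar transporter (145 CPM in small and 4.20 CPM in large cells), the non-coding RNA H19 (129.6 and 5.83 CPM) and Arl5c (286 and 15.2 CPM). Of the H19 UMIs in small cells, 56.4% came from 10 cells. Those that led the large cells included the cycle genes Aurkb, Cdk1 (33.1-fold lower in small cells) and Ube2c (26.2-fold lower), and Hbb-bt, a globin of red cells, which stood at 2.92 and 191 CPM, with 61.1% of its UMIs in large cells from 10 cells. Cpa3, a mast cell protease also seen in early precursors, stood at 86.7 CPM in small and 550.3 CPM in large cells.

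Against all other control cells, 7498 genes were tested, those with at least 10 CPM in the control cells together and a UMI in at least 2% of them. Of these, 389 were at least 1.5-fold higher in the Bcl11b+ Cd3g+ cells (5.19%) and 412 lower (5.49%), 10.7% in either direction, with a median log2 ratio over all tested genes of 0.02. The 4 CD3 and pre-T-cell receptor genes other than Cd3g summed to 679 CPM in the Bcl11b+ Cd3g+ cells and 28.2 CPM in the other control cells; Cd3d, Cd3e and Ptcra passed the filter through the Bcl11b+ Cd3g+ cells alone. Of 16 T-cell receptor signalling genes 9 were higher and none lower; their median log2 ratio was 0.80. Of 19 T-lineage regulators 8 were higher and none lower, and the median was 0.37, among them Ets1 (110.1 and 27.7 CPM, 3.98-fold), the E protein Tcf12 (159.9 and 66.6 CPM, 2.40-fold), Gata3 (87.3 and 45.1 CPM, 1.94-fold) and Tcf7 (331 and 192 CPM, 1.73-fold). Gata3 was within the limit among cells under 8000 UMIs (1.30-fold), and Tcf7 there (1.36-fold) and without cells holding markers of another type (1.30-fold). The 23 stem and progenitor regulators summed to 564 CPM in the Bcl11b+ Cd3g+ cells and 1617 CPM in the other control cells, and of the 18 that passed the filter 15 were lower. Notch receptors and targets had none of 6 higher and 2, Nrarp and Myc, lower, recombination genes 2 of 6 higher (Rag2 and Dntt), G1 regulators 5 of 16 higher and 1 lower, survival genes 1 of 8 higher (Bcl2) and 1 lower (Bid), and the 19 growth genes linked to Myc none in either direction. Since Bcl11b and Cd3g chose the cells, and a gene high in 1 class alone can pass the filter, these counts describe the choice.

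Outside the CD3 and pre-T-cell receptor genes, the largest ratio among the tested genes named was that of Gzma. Gzma, a granule protease of killer lymphocytes, stood at 118 CPM in the Bcl11b+ Cd3g+ cells and 10.1 CPM in the other control cells, a ratio of 11.6 (10.4 to 13.0). Of its UMIs, 10 cells held 26.5% in the Bcl11b+ Cd3g+ cells and 52.9% in the other control cells, and the ratio was 1.60 among cells under 8000 UMIs. Thy1 stood at 233 and 29.8 CPM (7.81-fold), and Skap1, an adaptor linking the receptor to integrins, at 285 and 38.0 CPM (7.50-fold). Themis was 8.78-fold, Ccdc109b, a mitochondrial calcium channel subunit, 7.86-fold, Gbp4, an interferon-induced GTPase, 6.63-fold, and Epcam, an epithelial adhesion molecule, 10.3-fold higher. Of 15 cytokine and homing receptors 5 were higher and 3 lower; among the higher were Il7r at 137 and 69.0 CPM (1.99-fold), Ifngr1 at 189 and 69.6 CPM (2.71-fold) and Il2ra at 308 and 185 CPM (1.67-fold). Without cells holding markers of another type, which left 132 Bcl11b+ Cd3g+ and 193 other control cells, the ratio of Il7r turned to 0.989 and that of Il2ra was 1.28. Dntt stood at 1117 and 562 CPM (1.99-fold), while Rag1 was below the limit for testing at 52.4 and 1.33 CPM.

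Genes of earlier precursors and of myeloid cells were lower. Flt3, the cytokine receptor of multipotent progenitors, stood at 1.15 CPM in the Bcl11b+ Cd3g+ cells and 21.4 CPM in the other control cells (18.7-fold lower; 10.4 to 37.5), and Hmga2, a chromatin protein of fetal stem cells, at 0.521 and 14.4 CPM (27.7-fold lower; 11.8 to 85.7). Lmo2, a co-factor of stem cell transcription, stood at 4.17 and 47.3 CPM (11.3-fold lower), Cd34, a progenitor surface marker, at 34.1 and 215 CPM (6.32-fold lower), and Spi1, which encodes the factor PU.1 of early precursors, at 40.0 and 143 CPM (3.56-fold lower). Bcl11a was 3.58-fold, Mef2c 4.53-fold and Kit 2.12-fold lower. Granulocyte and monocyte markers were lower by their sums, given below. For Elane, a neutrophil protease, 10 cells held 95.2% of the UMIs of the Bcl11b+ Cd3g+ cells and 53.4% of those of the other control cells.

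Against the 826 Bcl11b+ Cd3g- cells, the most alike class, fewer genes passed the same limit: 229 of 7498 were higher (3.05%) and 219 lower (2.92%), 5.97% in either direction. These cells are part of the others above, so the comparisons share cells. Cd3d stood at 344 CPM in the Bcl11b+ Cd3g+ cells and 0.487 CPM in the Bcl11b+ Cd3g- cells, a ratio of 706 (358 to 1636). That ratio rests on few Cd3d UMIs in the Bcl11b+ Cd3g- cells, all of them in at most 10 cells. It ran from 147 to 3531 over the settings tried and was 272 among large cells. Cd3e stood at 164 and 2.07 CPM and Ptcra at 76.1 and 0.670 CPM. Thy1 stood at 233 and 64.6 CPM (3.61-fold), Gzma at 118 and 17.4 CPM (6.77-fold) and Ets1 at 110.1 and 47.0 CPM (2.34-fold). Bcl11b, part of the rule on both sides, stood at 585 and 329 CPM. Several genes of T-lineage entry did not reach the limit: Il2ra stood at 308 and 348 CPM (ratio 0.885), Il7r at 137 and 139.5 CPM, Tcf7 at 331 and 280.5 CPM, Gata3 at 87.3 and 68.5 CPM and Lck at 474 and 321 CPM, all within 1.5-fold. For Lck, at a ratio of 1.48, and for Il7r this depended on the setting. Their ratios ran from 1.22 to 1.97 and from 0.650 to 1.08 over the settings tried. The T-lineage regulators summed to 2906 CPM in the Bcl11b+ Cd3g+ cells and 2681 CPM in the Bcl11b+ Cd3g- cells, and the stem and progenitor regulators to 564 and 934 CPM.

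**Figure D5:**
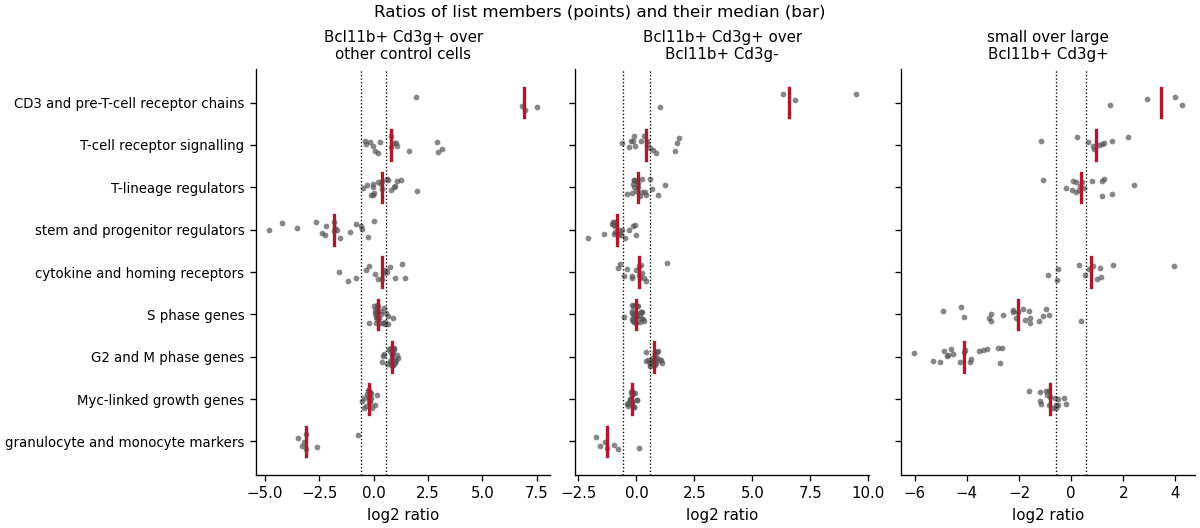
Log2 ratio of each tested gene (points) and the median (bar) for 9 gene lists, in 3 comparisons: Bcl11b+ Cd3g+ over other control cells, Bcl11b+ Cd3g+ over Bcl11b+ Cd3g- cells, and small over large Bcl11b+ Cd3g+ cells; dotted lines mark 1.5-fold, the rule's 2 genes are left out, and the 3 axes differ in range. G2 and M phase genes, all 25 of them tested in the first pair of comparisons, have medians of 0.86 and 0.77 there; in the third, genes high in 1 group can pass the filter through it alone, and stem and progenitor and granulocyte genes had no tested member in the third comparison.

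The Bcl11b+ Cd3g+ cells as a whole held more G2 and M phase RNA than either comparison class, and 226 of their 234 cells in G2 or M phase were large. Of 25 genes of these phases, 22 were higher against the other control cells, with a median log2 ratio of 0.86, and 20 against the Bcl11b+ Cd3g- cells, with a median of 0.77, while 3 and 0 of 26 S phase genes were higher. Ube2c, a ubiquitin enzyme of mitotic exit, stood at 480.4 CPM in the Bcl11b+ Cd3g+ cells, 221 CPM in the other control cells and 226 CPM in the Bcl11b+ Cd3g- cells. Cells in G2 or M phase made up 40.3% of the Bcl11b+ Cd3g+ cells (36.3 to 44.5%), 28.8% of the other control cells (27.1 to 30.6%) and 32.9% of the Bcl11b+ Cd3g- cells.

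Depth moves with cycle phase, so the share was read within ranges of depth. Between 12000 and 19999 UMIs, 48 of 133 Bcl11b+ Cd3g+ cells were in G2 or M phase (36.1%; 27.9 to 44.9%), against 13.9% of other control cells (11.8 to 16.2%) and 12.1% of Bcl11b+ Cd3g- cells. Between 20000 and 29999 UMIs, 77.8% of Bcl11b+ Cd3g+ cells (70.6 to 84.1%), 59.0% of other control cells (55.2 to 62.8%) and 55.2% of Bcl11b+ Cd3g- cells were. From 30000 UMIs up, the shares were 96.2%, 86.6% and 86.4%. Between 8000 and 11999 UMIs they were 8.62%, 3.97% and 9.89%, with 5 of 58 Bcl11b+ Cd3g+ cells. Below that, 5 of 122 Bcl11b+ Cd3g+ cells (4.10%) and 6 of 155 other control cells (3.87%) were in G2 or M phase between 5000 and 7999 UMIs, and 3 of 57 (5.26%) and 3 of 37 (8.11%) under 5000. The intervals of the Bcl11b+ Cd3g+ and the other control cells did not overlap between 12000 and 29999 UMIs, and overlapped in the other 4 ranges. Depth was not equal within a range. Between 12000 and 19999 UMIs the medians were 17120 UMIs in Bcl11b+ Cd3g+, 15704 in other control and 16119 in Bcl11b+ Cd3g- cells. Between 20000 and 29999 UMIs they were 24249.5, 23726 and 23993.5. The part of this remaining difference was not tested. The list's medians were smaller where the classes were set on 3000 UMIs per cell: the median was then 0.61 against the other control cells, with 15 of 25 genes higher, and 0.34 against the Bcl11b+ Cd3g- cells, with 2 of 25 higher.

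Set against control cells of like size, the small and the large cells each kept CD3 RNA above the rest. Small Bcl11b+ Cd3g+ cells over the 192 small other control cells had 362 of 2987 tested genes higher (12.1%) and 387 lower (13.0%), 25.1% in either direction. Rag1 stood at 373 CPM in small Bcl11b+ Cd3g+ cells and 2.44 CPM in small other control cells, Ptcra at 494 and 5.69 CPM, Notch3 at 134 and 2.44 CPM and Thy1 at 438 and 22.7 CPM. The 23 stem and progenitor regulators summed to 216 CPM in small Bcl11b+ Cd3g+ cells and 2406 CPM in small other control cells, of which 11 reached the limit, among them Cd34 at 7.80 and 318 CPM, Spi1 at 4.87 and 202 CPM and Kit at 9.75 and 139.7 CPM. Tyrobp, an adaptor of natural killer and myeloid receptors, stood at 5.85 and 812 CPM (139-fold lower; 63.5 to 379). Gzma stood at 184 and 115 CPM, and in the small other control cells it was found in 2.08% of cells among 3000 UMIs. The 25 G2 and M phase genes summed to 411 and 442 CPM. T-lineage regulators went both ways. Lef1, Ets1 and Tcf12 were higher. Over all settings tried against the other control cells, this one included, their lowest ratios were 10.4, 3.35 and 2.11. Runx3 (3.97-fold), Tox (2.42-fold), Sox4 (1.77-fold) and Cbfb were lower.

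Large Bcl11b+ Cd3g+ cells over the 2478 large other control cells had 145 of 2863 tested genes higher (5.06%) and 89 lower (3.11%), 8.17% in either direction. Cd3d stood at 134 and 0.929 CPM (144-fold), Gzma at 110.1 and 7.35 CPM (15.0-fold), Skap1 at 269 and 37.7 CPM (7.13-fold) and Thy1 at 208 and 30.0 CPM (6.95-fold). Among 23 G2 and M phase genes, 21 were higher, and the whole list summed to 5330.3 and 2783 CPM. The stem and progenitor regulators summed to 606 and 1597 CPM. Over the 798 large Bcl11b+ Cd3g- cells, 91 of 2871 genes were higher (3.17%) and 34 lower (1.18%), 4.35% in either direction. Of 23 list genes of G2 and M phase 21 were higher, the whole list summed to 5330.3 and 2924 CPM, and Gzma was 6.25-fold and Dntt 1.87-fold higher.

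Markers of 9 other cell types that a thymus sort could hold were read in the same cells. At least 2 granulocyte and monocyte markers were found among 3000 UMIs in 2.41% of Bcl11b+ Cd3g+ cells and 16.8% of other control cells (186 and 1304 CPM summed over 13 markers), and at least 2 natural killer and innate lymphoid markers in 23.3% and 54.2% (534 and 916 CPM over 15 markers; of 6 tested 3 were lower and Gzma higher). Erythroid and megakaryocyte markers were found in this way in 0.862% and 4.04% of cells, gamma delta T-cell markers in 3.10% and 3.60% (115 and 149 CPM), dendritic markers in 18.1% and 19.4% (454 and 487 CPM; 2 of 5 tested lower), and mast cell markers in 0.345% and 1.61%, though the summed mast cell level, mostly Cpa3, was 502 and 357 CPM. These lists were thus at or below the level of the other control cells but for Cpa3. The summed mast cell level was higher still in the Bcl11b+ Cd3g- cells, which are part of the other control cells. Against other control cells of like size, it was higher in large Bcl11b+ Cd3g+ cells and lower in small ones. In the Bcl11b+ Cd3g- cells, granulocyte and monocyte markers were found in 4.12% (2.87 to 5.70%), which overlaps the Bcl11b+ Cd3g+ interval (1.33 to 4.02%). Natural killer and innate lymphoid markers were found there in 40.1% (36.7 to 43.5%), above the Bcl11b+ Cd3g+ interval (19.9 to 26.9%).

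Later thymocyte and thymic epithelial markers were found in a larger share of the Bcl11b+ Cd3g+ cells than of the other control cells, with intervals that did not overlap. Against the Bcl11b+ Cd3g- cells the intervals did not overlap for thymic epithelial markers (0 of 826, up to 0.446%). They overlapped for later thymocyte markers (6.90%, 5.27 to 8.85%). At least 2 later thymocyte markers were found in 9.31% of the Bcl11b+ Cd3g+ cells (7.07 to 11.97%) and 4.38% of other control cells (3.64 to 5.23%). The share was 13.4% in small and 7.48% in large Bcl11b+ Cd3g+ cells. The list summed to 239 and 168 CPM in the Bcl11b+ Cd3g+ and the other control cells. Its defining genes were at or near 0: Cd8a at 0 CPM in the Bcl11b+ Cd3g+ cells, Cd4, the co-receptor of helper cells, at 1.56 CPM and Cd8b1 at 0.833 CPM, while Bcl2 was the 1 of 4 tested genes that was higher. At least 2 B-cell markers were found in 5 of 580 Bcl11b+ Cd3g+ cells and 3 of 2670 other control cells, with intervals that overlap (from 0.280% in the Bcl11b+ Cd3g+ cells, up to 0.328% in the other control cells; 56.5 and 47.0 CPM, of which Cd79b, a B-cell receptor chain, made 47.7 and 40.4 CPM). At least 2 thymic epithelial markers were found in 9 Bcl11b+ Cd3g+ cells (1.55%; 0.712 to 2.93%) and 1 other control cell (0.0375%; up to 0.208%), at 58.5 and 21.9 CPM over the list, mostly Epcam, with Foxn1, Krt5, Krt8 and Psmb11 at 0 CPM in the Bcl11b+ Cd3g+ cells. By size, 8 of 179 small (4.47%) and 1 of 401 large Bcl11b+ Cd3g+ cells (0.249%) held at least 2 thymic epithelial markers. With the other members at 0, these were Epcam and Ccl25. A filter at full depth took out cells with at least 2 markers of another type. Its lists were the granulocyte and monocyte, B-cell, dendritic, mast cell, erythroid and megakaryocyte, and thymic epithelial ones. Later thymocyte, gamma delta and natural killer markers were not part of it. It left 132 of the 580 cells, 193 of the 2670 other control cells and 89 of the 826 Bcl11b+ Cd3g- cells. It was not read at equal depth. The ratios that this filter turned or brought within the limit are given beside them or under the settings tried. Trac, Trdc, the Trbc genes and Ighm were not analysed here.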

How the data were processed

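The deposited matrix holds raw UMI counts per gene and barcode (27998 genes, 8293 barcodes) made by the authors with Cell Ranger 3.0 and mm10, per the submitters' processing notes; a second deposited matrix holds hashtag counts. The sort of each barcode came from the authors' deposited assignment; how the barcodes were demultiplexed was not stated. The members and lists were chosen with earlier results of these data known. Control cells with at least 3000 UMIs were kept, 3250 of 3302. Counts were summed per class and scaled to CPM; ratios carry binomial and shares exact Clopper-Pearson 95% intervals, which cover counting error only. Shares were read after thinning each cell to 3000 UMIs (seed 20). A gene counted as higher or lower from 1.5-fold. With 1 sort, no count model was fitted; edgeR 4.0.16 and DESeq2 1.42.0 served only for scaling factors. Named genes were the 12 largest ratios each way, leaving out predicted, mitochondrial and ribosomal protein genes, plus list members and the label's markers; those of the small and large cells were chosen after their values were seen. The 21 gene lists leave out Bcl11b and Cd3g. No doublet caller was run, and doublets within a sort share a hashtag; barcodes assigned to no sort were left out of each class. Of 27998 gene IDs, 27645 matched GENCODE M21. Ratios were tested on simulated data. Python 3.11.15, numpy 2.4.6, pandas 2.3.3, scipy 1.17.1 and R 4.3.3 were used.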

Additional observations from a re-analysis of the deposited data

Results flagged for a closer look

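Barcodes that the authors assigned to no sort lie outside the comparisons above. Of the 341 with at least 3000 UMIs, 40 held both Bcl11b and Cd3g RNA (11.7%, exact binomial 95% interval 8.51 to 15.6%). The share was 17.8% of the control cells (580 of 3250). It was 0 of 4567 cells in the 4 gated sorts, which were gated Bcl11b-. In 38 of the 40, a second hashtag made up at least 20% of the hashtag counts, as in 313 of all 341.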

How the results depend on the processing

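No paired analysis was possible because all cells came from 1 sort in 1 library. Against other control cells (389 higher, 412 lower), the counts were 623 and 650 with cells thinned to 3000 UMIs, 783 and 902 without cells holding 2 markers of another type, 1980 and 1831 with no filter on low genes, 121 and 178 at a ratio of at least 2, and 997 and 1399 among cells under 8000 UMIs. Against Bcl11b+ Cd3g- cells (229 and 219), they were 527 and 536 thinned, 837 and 791 without such marker cells, 1700 and 1266 with no filter and 51 and 60 at a ratio of at least 2; lower genes numbered 347 with equal weight per cell and 332 with classes set on 3000 UMIs. The marker filter, which used the lists named above, left 132 of the 580 cells. It left 193 of the other control cells and 89 of the Bcl11b+ Cd3g- cells. Thinning lowered the UMIs summed, and no other cause was tested. The share meeting the rule was 10.4% with classes set on 3000 UMIs and 50.5% in the lowest of 10 depth bins. Against other control cells, ratios at least 1.5-fold apart turned for Il7r (0.989, marker filter), Ccnb1 (0.906 outside G2 or M, 0.533 under 8000 UMIs) and Elane (1.20, under 8000 UMIs). Against Bcl11b+ Cd3g- cells they turned for Lmo2 (1.83, thinned), Ccnb1 (0.825 outside G2 or M), Ube2c (0.982 outside G2 or M) and the G2 and M median (-0.036 outside G2 or M); that setting leaves out cells by these same genes, which lowers their ratios by construction. The Cd3d ratio against other control cells ranged from 54.9 to 283 over the settings, Ptcra from 55.0 to 238 and Gzma from 1.60 to 15.0, lowest under 8000 UMIs. With 1 sort, variation between mice cannot be read from these data, and low genes in small cells rest on few UMIs.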
